A study of Homo sapiens with 12 samples.

Results

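The p53 target genes described here are 34 of 35 listed genes that the tumour suppressor p53 is known to activate, found by their symbols in a table of 13937 genes. ACER2 was not analysed here. All 34 passed the filter on low values and were tested. Transcripts were measured by sequencing of messenger RNA 3' ends in WI-38 cells, a line of normal human fibroblasts from embryonic lung, 2 libraries per group. The YT group received siRNAs against the Hippo pathway coactivators YAP and TAZ with the control siRNA siAS. The cGAS_YT group received the YAP and TAZ siRNAs with siRNA against the cytosolic DNA sensor cGAS, and the STING_YT group received them with siRNA against its adaptor STING. The cGAS and STING groups received those siRNAs with siAS, and the control group received siAS alone. All 6 groups were therefore transfected with siRNA, using Lipofectamine RNAi-MAX. The time after transfection is not given in the labels used here.

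The transcription factor p53 is held low by the ubiquitin ligase MDM2 and accumulates when DNA is damaged, when replication or ribosome assembly fails, or under oncogenic stress. It then binds response elements near its target genes, whose products halt the cell cycle, repair DNA, adjust metabolism, start apoptosis or, as with MDM2 itself, switch p53 off again. In fibroblasts, a lasting p53 response is known as one of the routes into senescence, a state without division.

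Levels are in CPM, read counts relative to library size, as the authors scaled them. Read counts recovered from these values, summed over the 13937 genes, lay between 17790774 and 20650727 per library. The targeted transcripts were low where the labels say so: YAP1 was at 16.3 and 13.02 CPM in YT libraries, against 114 and 105 CPM in control libraries, and WWTR1, which encodes TAZ, at 22.8 and 16.7 CPM, against 133 and 144 CPM. The cGAS gene (listed as MB21D1) was at 1.94 and 1.77 CPM in cGAS libraries, against 9.60 and 6.14 CPM in control libraries. The STING gene (listed as TMEM173) was at 1.79 and 1.77 CPM in STING libraries, against 24.5 and 23.6 CPM in control libraries. In cGAS_YT libraries YAP1 was at 24.6 and 21.7 CPM, against 95.5 and 91.1 CPM in cGAS libraries. WWTR1 there was at 17.9 and 18.8 CPM, against 93.5 and 97.7 CPM. In STING_YT libraries YAP1 was at 12.6 and 16.1 CPM, against 94.7 and 82.2 CPM in STING libraries. WWTR1 there was at 12.7 and 11.4 CPM, against 102 and 99.2 CPM. MB21D1 was at 1.65 and 1.30 CPM in cGAS_YT and TMEM173 at 1.28 and 1.93 CPM in STING_YT libraries. WWTR1 was thus also lower in cGAS and STING libraries than in control libraries, and remaining YAP1 was higher in cGAS_YT than in YT libraries. The part of these differences in the interactions described below was not tested. All 10 fibroblast markers were present, and 12 epithelial, endothelial and blood cell markers were not among the genes of the table. The summed fibroblast markers lay at 33647 to 34921 CPM in YT, 27624 to 31236 CPM in cGAS_YT, 39877 to 42674 CPM in STING_YT, 28218 to 29281 CPM in cGAS and 35494 to 35740 CPM in STING libraries, against 38854 to 40106 CPM in control libraries. In cGAS against control 1 of the 10 markers rose (10%, beside 11.1% of all genes tested) and 4 fell (40%, beside 14.3%). Among those that fell was COL1A1, the most abundant, at 10482 and 10015 CPM in cGAS libraries, against 18487 and 17883 CPM in control libraries. The part of these markers in the results was not tested. Over the 34 genes, the median gap between replicates was 0.23 (log2) in the YT group and 0.064 to 0.12 in the other 5 groups. Changes below are differences of log2(CPM + 1) with their SE, 2 libraries per group. A gene counts as called at a limma adjusted p (Benjamini-Hochberg, over all 13894 genes tested) under 0.05. Whether replicates were independent cultures is not stated; the p-values reflect the spread between these libraries, which may be technical.

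Of the 34 genes, 28 had RefSeq promoter windows (GRCh38.p14; 250 bases before to 50 after a transcript start), which were searched for the p53 response element. The element is 2 adjacent decamers, each of 3 purines, C, 2 A-or-T bases, G and 3 pyrimidines; up to 3 mismatches were allowed, at most 1 of them in the 4-base centres. It reads as the same pattern on both strands. It was found in 10 of the 28 genes (35.7%), and in 2.48% of all 27305 genes with a window. The following are shown because their genes span the roles and responses described below; capitals mark the 4-base centre of each decamer, and positions count from the transcript start as 0.
MDM2, -94 to -75, chr12:68808923-68808942 (+): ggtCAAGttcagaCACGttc
MDM2, -56 to -37, chr12:68808961-68808980 (+): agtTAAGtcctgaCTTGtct
FAS, -122 to -103, chr10:88991309-88991328 (+): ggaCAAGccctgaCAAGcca
DDB2, -5 to 14, chr11:47214969-47214988 (+): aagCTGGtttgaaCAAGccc
SESN1, -49 to -30, chr6:109009018-109009037 (-): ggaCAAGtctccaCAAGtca
GDF15, 28 to 47, chr19:18386186-18386205 (+): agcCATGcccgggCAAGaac
AEN, -34 to -15, chr15:88621306-88621325 (+): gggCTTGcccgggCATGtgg
Both MDM2 elements lie before one of its internal starts. Further matches were found in FDXR, KITLG, RPS27L and XPC. A match is a description of these letters only, in genes listed because they are known p53 targets. Of the 10 genes with a match, 2 were called higher in YT against control (20%, where 20.6% of all genes were), 7 in cGAS_YT against cGAS (70%, background 15%) and 7 in STING_YT against STING (70%, background 19.1%). Among the 18 genes searched without a match these counts were 7 (38.9%), 10 (55.6%) and 9 (50%). Lower calls in the same order numbered 0, 0 and 1 with a match and 4, 3 and 3 without one, where 20.9%, 12.7% and 19.8% of all genes were called lower.

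Depletion of YAP and TAZ raised more p53 target genes than it lowered in each of 3 backgrounds. In YT against control 12 of the 34 genes rose (35.3%, where 20.6% of all genes tested were called higher) and 5 fell (14.7%, where 20.9% were called lower), so that 17 of 34 were called in either direction (50%, background 41.6%), with a median change of 0.15 beside 0.00 over all genes. In cGAS_YT against cGAS 22 rose (64.7%, background 15%) and 3 fell (8.82%, background 12.7%), in all 25 (73.5%, background 27.7%), with a median of 0.53 beside 0.03. In STING_YT against STING 21 rose (61.8%, background 19.1%) and 4 fell (11.8%, background 19.8%), in all 25 (73.5%, background 38.9%), with a median of 0.39 beside 0.03. Most called changes were below 2-fold: 4, 4 and 5 of the called genes changed at least 2-fold in these 3 comparisons. The libraries of the groups compared did not overlap for 23 of the 34 genes in YT against control (background 64.9%), for 31 in cGAS_YT against cGAS (background 66.9%) and for 32 in STING_YT against STING (background 74.3%). The 3 comparisons share no libraries. Fewer cells with a transcript and less of it per cell cannot be told apart in bulk RNA.

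**Figure D1:**
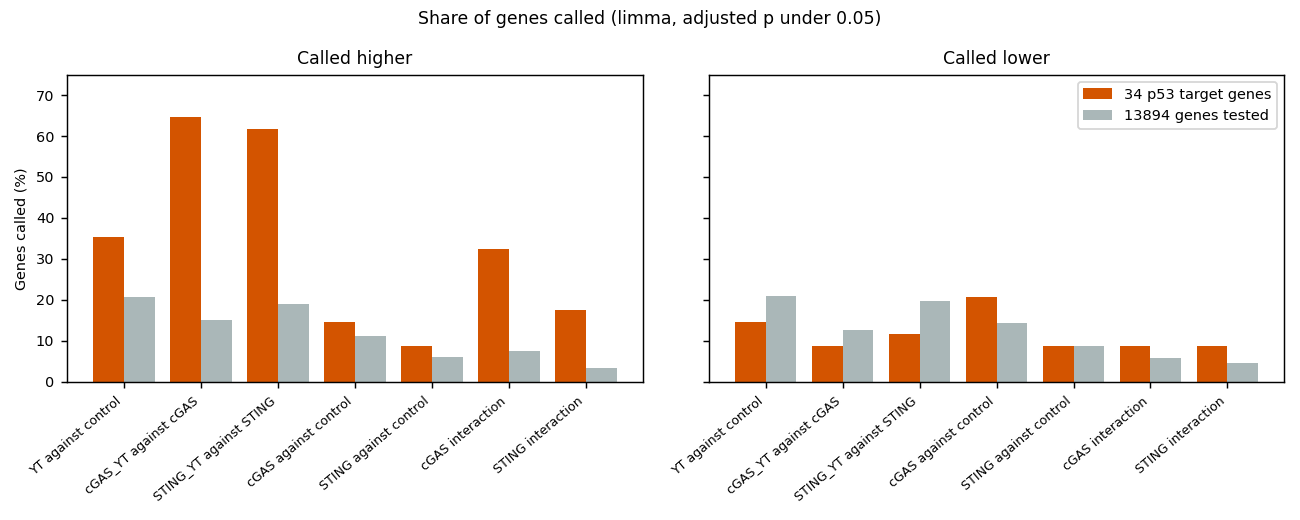
Percent of genes called higher (left) and lower (right) by limma at adjusted p under 0.05 in each comparison, for the 34 p53 target genes and for all 13894 genes tested. The share called higher is 64.7% against 15% in cGAS_YT against cGAS and 61.8% against 19.1% in STING_YT against STING.

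The genes that rose in all 3 comparisons were MDM2, GDF15, TP53I3, TP53INP1, BBC3, RRM2B, PHLDA3, SPATA18 and DRAM1. That is 9 of 34, where 7.16% of all genes tested were called higher in all 3. ZMAT3 and TRIAP1 fell in all 3. That is 2 of 34, a share below the 7.89% of all genes that did. Fitted with only the YT and control libraries, 8 genes rose and 4 fell in YT cells, and the calls of TP53I3, BAX, RRM2B, PHLDA3 and EDA2R were lost (limma adjusted p 0.053 to 0.14). POLH, RPS27L and KITLG were called in none of the 3 comparisons. PLK2 and TIGAR were called in opposite directions in different backgrounds. The shares of all genes with these last patterns were not counted.

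**Figure D2:**
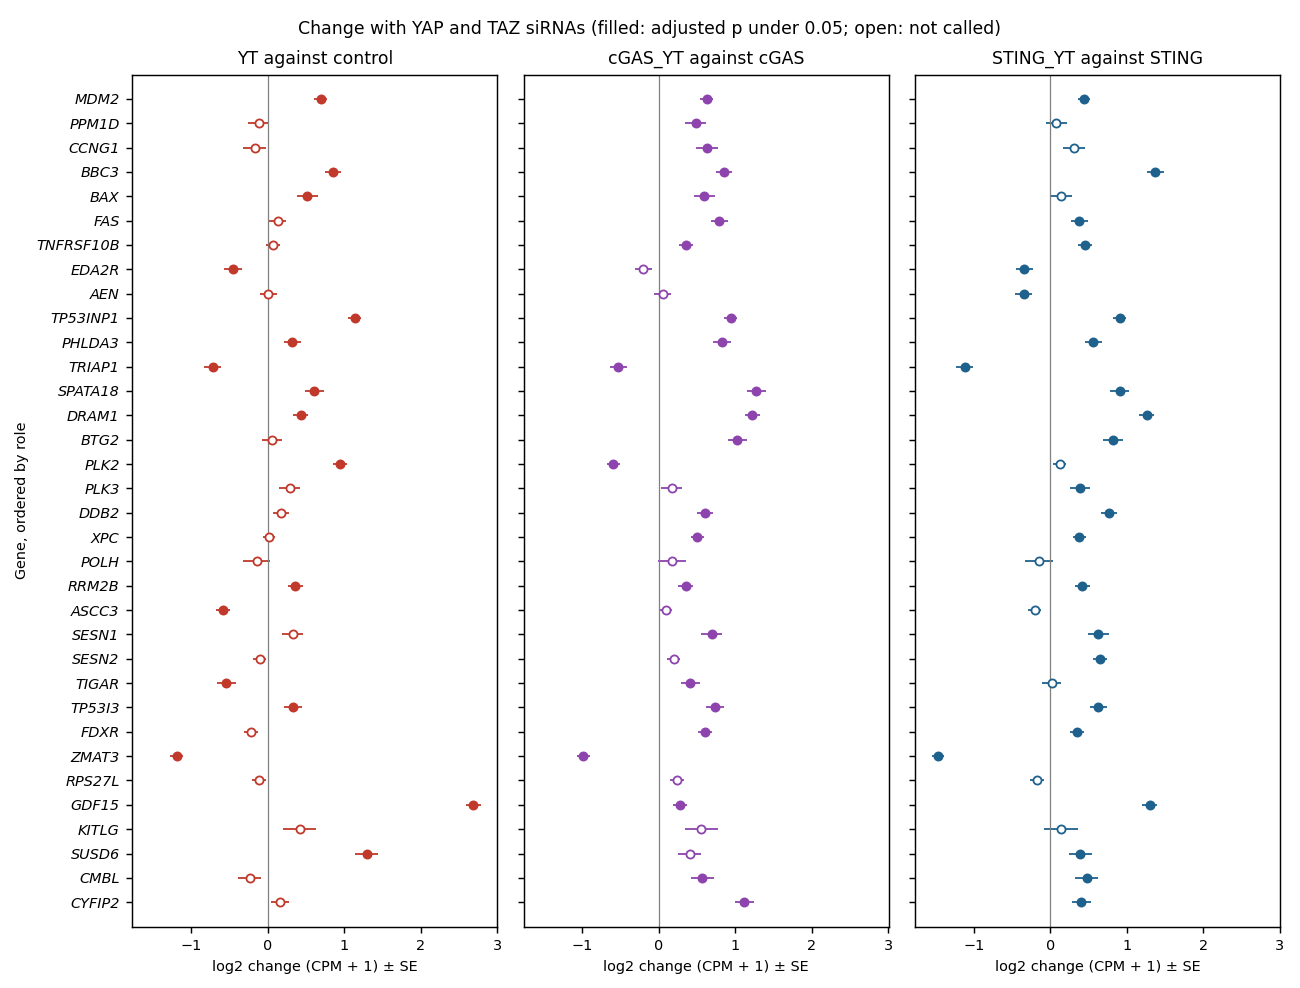
Change in log2(CPM + 1) with the YAP and TAZ siRNAs for the 34 genes, ordered by role, in YT against control (left), cGAS_YT against cGAS (middle) and STING_YT against STING (right). Points are estimates from 2 libraries per group, bars are the SE, and filled points passed adjusted p under 0.05; most filled points lie right of 0, and ZMAT3 and TRIAP1 lie left of it in each panel.

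Among the genes that feed back on p53, MDM2, the ligase that degrades it, rose in every background. MDM2 stood at 235 and 240.5 CPM in YT libraries, against 158 and 136 CPM in control libraries (0.69 ± 0.08, limma adjusted p = 4.47e-06). In cGAS_YT libraries it stood at 233 and 236 CPM, against 147 and 156 CPM in cGAS libraries (0.63 ± 0.08), and in STING_YT libraries at 264 and 265 CPM, against 192 and 198 CPM in STING libraries (0.44 ± 0.08). MDM2 lies at chr12:68808176-68850686 (GRCh38). The YAP/TAZ-depleted libraries were above their counterparts without overlap each time. PPM1D, a phosphatase that removes activating phosphates from p53, rose in cGAS_YT cells (0.48 ± 0.14) and had changes of -0.11 ± 0.14 in YT and 0.08 ± 0.14 in STING_YT cells. CCNG1, the cyclin G1 gene, whose product recruits a phosphatase to MDM2, stood at 81.3 and 97.3 CPM in cGAS_YT libraries, against 51.5 and 63.4 CPM in cGAS libraries, and rose (0.63 ± 0.14). It was not called in YT (-0.17 ± 0.14; 141 and 103 CPM, against 128 and 143 CPM in control libraries) or in STING_YT cells (0.31 ± 0.14). The call of PPM1D in cGAS_YT cells was lost without cGAS replicate 7 (0.45), cGAS replicate 8 (0.52) or cGAS_YT replicate 10 (0.42), and that of CCNG1 without cGAS replicate 7 (0.48) or cGAS_YT replicate 10 (0.50). In YT cells both were called lower without YT replicate 3 (-0.34) for PPM1D and without YT replicate 3 (-0.39) for CCNG1. In STING_YT cells CCNG1 was called higher without YT replicate 3 (0.31) or YT replicate 4 (0.31), libraries outside that comparison.

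Of 9 cell death genes, 4 rose (44.4%, background 20.6%) and 2 fell (22.2%, background 20.9%) in YT cells. In cGAS_YT cells 6 rose (66.7%, background 15%) and 1 fell (11.1%, background 12.7%), and in STING_YT cells 5 rose (55.6%, background 19.1%) and 3 fell (33.3%, background 19.8%). BBC3, which encodes the BH3-only protein PUMA, stood at 275 and 338 CPM in YT libraries, against 169 and 168 CPM in control libraries (0.86 ± 0.11, limma adjusted p = 6.91e-06). Its levels were 187 and 234 CPM in cGAS_YT libraries, against 118 and 113 CPM in cGAS libraries (0.85 ± 0.11), and 428 and 429 CPM in STING_YT libraries, against 166 and 163 CPM in STING libraries (1.38 ± 0.11). The groups did not overlap in any of the 3. TP53INP1, a nuclear protein that aids p53-driven apoptosis and autophagy, stood at 139.7 and 139.8 CPM in YT libraries, against 62.2 and 63.4 CPM in control libraries (1.14 ± 0.09). It was at 64.6 and 72.2 CPM in cGAS_YT libraries, against 34.7 and 35.5 CPM in cGAS libraries (0.94 ± 0.09), and at 118 and 123 CPM in STING_YT libraries, against 65.2 and 62.2 CPM in STING libraries (0.91 ± 0.09). In each pair the depleted libraries lay above the others, and the lowest levels were those of the cGAS libraries.

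BAX, which forms pores in the outer mitochondrial membrane, stood at 23.7 and 33.3 CPM in YT libraries, against 20.4 and 18.2 CPM in control libraries, and rose (0.52 ± 0.14). It also rose in cGAS_YT libraries, at 37.97 and 37.3 CPM, against 24.5 and 24.6 CPM in cGAS libraries (0.60 ± 0.14). In STING_YT libraries it was not called, at 32.8 and 33.7 CPM, against 31.5 and 28.4 CPM in STING libraries (0.15 ± 0.14). The BAX call in YT cells was lost without control replicate 2 (0.44) or YT replicate 4 (0.28). Of the death receptor genes, FAS rose in cGAS_YT (0.79 ± 0.11) and STING_YT cells (0.38 ± 0.11) and was not called in YT cells (0.13 ± 0.11). TNFRSF10B, which encodes the TRAIL receptor DR5, stood at 185 and 189 CPM in cGAS_YT libraries, against 146 and 147 CPM in cGAS libraries (0.35 ± 0.09). In STING_YT libraries it stood at 132 and 118 CPM, against 87.7 and 93.6 CPM in STING libraries (0.46 ± 0.09), and in YT libraries at 153 and 128 CPM, overlapping the 129 and 138 CPM of control libraries. EDA2R, a receptor for the ectodysplasin EDA-A2, fell in YT (-0.45 ± 0.11) and STING_YT cells (-0.34 ± 0.11), and AEN, a nuclease of apoptotic DNA breakdown, fell in STING_YT cells (-0.34 ± 0.11). In cGAS_YT cells EDA2R had a change of -0.20 ± 0.11 and AEN of 0.05 ± 0.11, and in YT cells AEN had 0.01 ± 0.11, with none of these called. The EDA2R call in YT cells was lost when only the YT and control groups were fitted (limma adjusted p = 0.0532). Several of these calls were lost when a library was left out, which leaves 1 library in its group. FAS in STING_YT cells was lost without STING replicate 14 (0.29), STING_YT replicate 15 (0.40) or STING_YT replicate 16 (0.36), and TNFRSF10B in cGAS_YT cells without cGAS replicate 7 (0.35), cGAS replicate 8 (0.36) or cGAS_YT replicate 10 (0.34). EDA2R in STING_YT cells was lost without STING replicate 13 (-0.40), STING replicate 14 (-0.28), STING_YT replicate 15 (-0.37) or STING_YT replicate 16 (-0.30), and AEN there without STING replicate 13 (-0.27), STING_YT replicate 15 (-0.35) or STING_YT replicate 16 (-0.34).

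PHLDA3, which competes with the kinase AKT for membrane lipids, stood at 86.95 and 103 CPM in YT libraries, against 71.8 and 79.2 CPM in control libraries (0.33 ± 0.12). Levels were 39.4 and 48.2 CPM in cGAS_YT libraries, against 23.5 and 24.7 CPM in cGAS libraries (0.83 ± 0.12), and 121 and 121 CPM in STING_YT libraries, against 88.4 and 74.8 CPM in STING libraries (0.57 ± 0.12). The rise in YT cells was lost without control replicate 1 (0.26), control replicate 2 (0.40) or YT replicate 4 (0.20). TRIAP1, whose small product restrains apoptosis, went the other way. It stood at 84.5 and 112 CPM in YT libraries, against 161 and 160.1 CPM in control libraries (-0.72 ± 0.11, limma adjusted p = 7.6e-05). It stood at 138 and 129 CPM in cGAS_YT libraries, against 197 and 189 CPM in cGAS libraries (-0.53 ± 0.11), and at 101 and 86.2 CPM in STING_YT libraries, against 209 and 198 CPM in STING libraries (-1.11 ± 0.11). The depleted libraries were the lower ones in each pair, with no overlap.

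Both genes of mitochondrial quality control and autophagy, a group of only 2, rose in YT, cGAS_YT and STING_YT cells (100% each, where 20.6%, 15% and 19.1% of all genes rose). SPATA18, needed for the clearance of damaged mitochondrial proteins, stood at 28.8 and 23.6 CPM in YT libraries, against 15.9 and 17.6 CPM in control libraries (0.61 ± 0.13). It reached 30.2 and 29.7 CPM in cGAS_YT libraries, against 11.9 and 11.7 CPM in cGAS libraries (1.27 ± 0.13), and 35.5 and 33.5 CPM in STING_YT libraries, against 18.3 and 17.5 CPM in STING libraries (0.91 ± 0.13). DRAM1, a lysosomal membrane protein of p53-induced autophagy, stood at 50.7 and 53.3 CPM in YT libraries, against 40.8 and 35.7 CPM in control libraries (0.43 ± 0.10, limma adjusted p = 0.00184). It stood at 94.4 and 96.5 CPM in cGAS_YT libraries, against 40.9 and 39.8 CPM in cGAS libraries (1.22 ± 0.10), and at 95.2 and 93.1 CPM in STING_YT libraries, against 41.1 and 36.5 CPM in STING libraries (1.26 ± 0.10). All 6 calls of this pair of genes were kept with any of the 12 libraries left out.

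The growth arrest genes did not move together. BTG2, an antiproliferative factor that promotes mRNA deadenylation, stood at 27.6 and 21.2 CPM in YT libraries, overlapping the 21.2 and 25.5 CPM of control libraries (0.06 ± 0.13, not called). It rose in cGAS_YT libraries, to 64.3 and 57.6 CPM, against 29.8 and 28.9 CPM in cGAS libraries (1.03 ± 0.13), and in STING_YT libraries, to 50.2 and 48.2 CPM, against 26.7 and 28.00 CPM in STING libraries (0.82 ± 0.13). PLK2, a stress-induced polo-like kinase, showed the opposite order: 313 and 294 CPM in YT libraries, against 163 and 151 CPM in control libraries (0.95 ± 0.09, limma adjusted p = 2.96e-07). In cGAS_YT libraries PLK2 fell to 98.2 and 87.5 CPM, against 144 and 137 CPM in cGAS libraries (-0.60 ± 0.09). In STING_YT libraries it stood at 138 and 154 CPM, against 137 and 131 CPM in STING libraries (0.12 ± 0.09, not called). PLK3, a related kinase, stood at 24.98 and 27.03 CPM in STING_YT libraries, against 19.5 and 19.7 CPM in STING libraries, and rose (0.39 ± 0.14), a call lost without STING replicate 13 (0.38), STING replicate 14 (0.40), STING_YT replicate 15 (0.44) or STING_YT replicate 16 (0.33). In YT libraries PLK3 was at 34.2 and 37.00 CPM, against 27.9 and 30.00 CPM in control libraries (0.29 ± 0.14), and in cGAS_YT libraries at 24.4 and 33.3 CPM, against 23.9 and 26.7 CPM in cGAS libraries (0.17 ± 0.14), neither of them called.

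**Figure D3:**
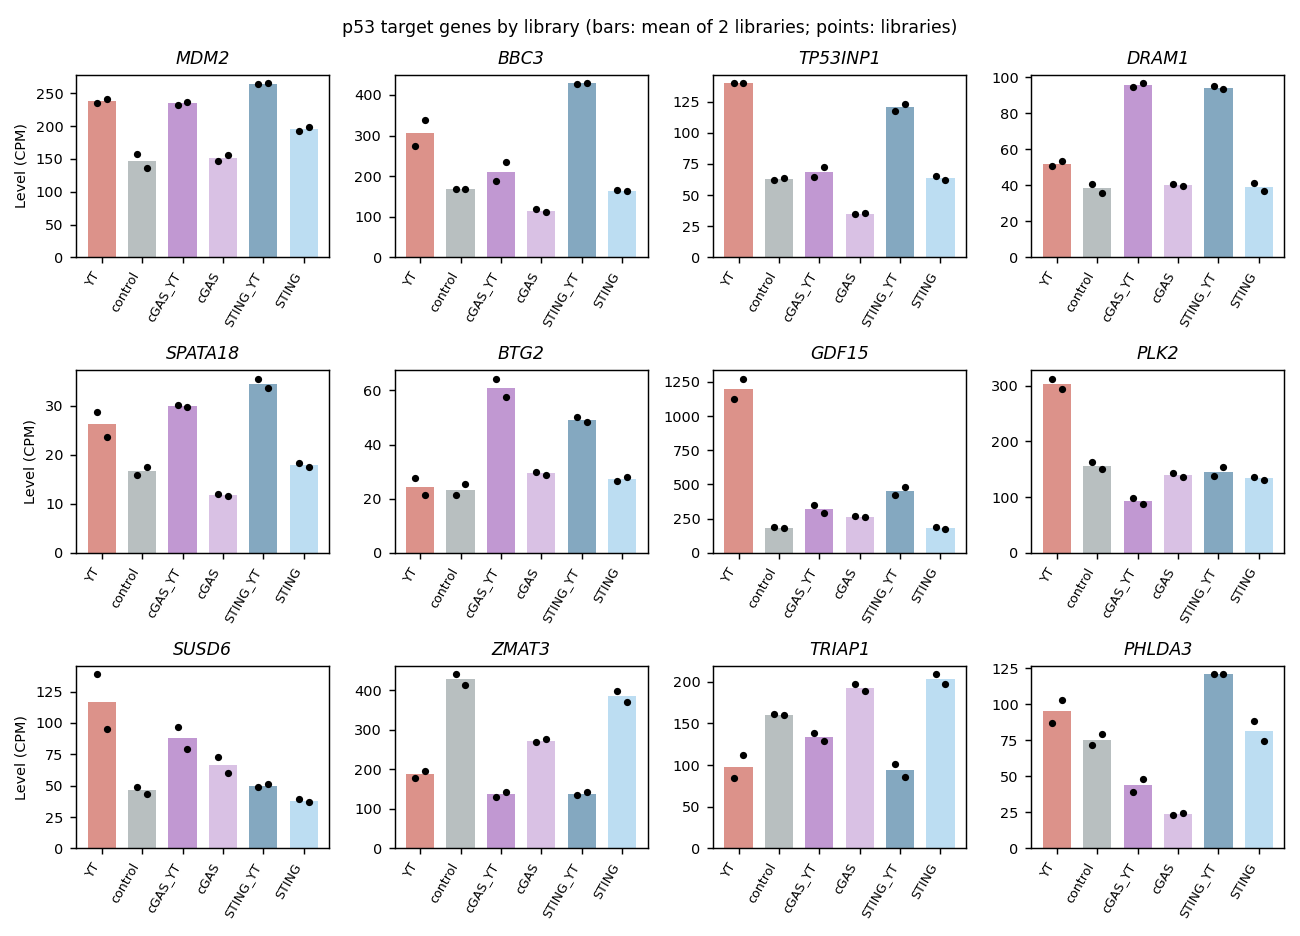
Levels in CPM of 12 p53 target genes in each library (points) with the group mean of 2 libraries (bars). Each YAP/TAZ-depleted group stands left of the group it is compared with; BTG2 is at 64.3 and 57.6 CPM in cGAS_YT libraries and at 27.6 and 21.2 CPM in YT libraries, while PLK2 and GDF15 are highest in YT libraries.

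Of 5 DNA repair and nucleotide genes, 1 rose and 1 fell in YT cells (20% each, at the background of 20.6% and 20.9%), while 3 rose in cGAS_YT cells (60%, background 15%) and 3 in STING_YT cells (60%, background 19.1%). DDB2, a sensor of ultraviolet damage, stood at 59.4 and 57.1 CPM in cGAS_YT libraries, against 38.4 and 37.6 CPM in cGAS libraries (0.60 ± 0.10). It stood at 47.7 and 44.1 CPM in STING_YT libraries, against 26.5 and 26.3 CPM in STING libraries (0.77 ± 0.10), and at 36.03 and 42.8 CPM in YT libraries, against 35.1 and 33.98 CPM in control libraries (0.18 ± 0.10, not called). XPC, which recognises bulky lesions, rose by 0.50 ± 0.08 in cGAS_YT and 0.38 ± 0.08 in STING_YT cells and had a change of 0.02 ± 0.08 in YT cells. RRM2B, the p53-inducible ribonucleotide reductase subunit that supplies nucleotides for repair, stood at 75.7 and 73.2 CPM in YT libraries, against 61.8 and 53.7 CPM in control libraries (0.36 ± 0.10). It stood at 138 and 121 CPM in cGAS_YT libraries, against 102 and 101 CPM in cGAS libraries (0.35 ± 0.10), and at 76.9 and 87.3 CPM in STING_YT libraries, against 62.6 and 59.6 CPM in STING libraries (0.42 ± 0.10). POLH, the polymerase that copies past ultraviolet lesions, was not called in any of the 3, with changes between -0.15 and 0.17. ASCC3, a helicase of alkylation repair, fell in YT cells (-0.58 ± 0.09) and had changes of 0.09 ± 0.09 in cGAS_YT and -0.20 ± 0.09 in STING_YT cells. The RRM2B call was lost in YT cells without control replicate 2 (0.27), in cGAS_YT cells without cGAS replicate 7 (0.35), cGAS replicate 8 (0.34) or cGAS_YT replicate 9 (0.26) and in STING_YT cells without STING_YT replicate 16 (0.33). DDB2 was called higher in YT cells without YT replicate 3 (0.30), and ASCC3 lower in STING_YT cells without YT replicate 3 (-0.20) or YT replicate 4 (-0.20).

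Of 5 metabolic and redox targets, 1 rose and 1 fell in YT cells (20% each, at the background of 20.6% and 20.9%), while 4 rose in cGAS_YT cells (80%, background 15%) and 4 in STING_YT cells (80%, background 19.1%). SESN1, a sestrin that restrains the growth kinase complex mTORC1, rose in cGAS_YT (0.69 ± 0.14) and STING_YT cells (0.63 ± 0.14); in YT libraries it stood at 24.7 and 20.9 CPM, against 18.99 and 16.9 CPM in control libraries (0.33 ± 0.14, not called). SESN2, a second sestrin, rose in STING_YT libraries, at 442 and 456 CPM, against 295 and 276 CPM in STING libraries (0.65 ± 0.09, limma adjusted p = 1.61e-05). It was not called in YT (-0.10 ± 0.09) or cGAS_YT cells (0.19 ± 0.09). TP53I3, a quinone oxidoreductase linked to reactive oxygen species, rose by 0.34 ± 0.11 in YT, 0.73 ± 0.11 in cGAS_YT and 0.63 ± 0.11 in STING_YT cells. FDXR, the ferredoxin reductase of mitochondrial steroid and iron-sulfur chemistry, rose in cGAS_YT (0.60 ± 0.09) and STING_YT cells (0.35 ± 0.09), beside -0.22 ± 0.09 in YT cells. TIGAR, which lowers glycolytic flux, fell in YT libraries, at 39.4 and 28.6 CPM, against 49.7 and 48.7 CPM in control libraries (-0.54 ± 0.12). It rose in cGAS_YT libraries, at 84.2 and 79.7 CPM, against 58.00 and 64.7 CPM in cGAS libraries (0.41 ± 0.12), and stood at 54.02 and 54.98 CPM in STING_YT libraries, overlapping the 51.04 and 56.7 CPM of STING libraries.

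Several of these metabolic calls or changes moved when a library was left out. The TP53I3 call in YT cells was lost without control replicate 1 (0.27) or YT replicate 4 (0.15), and its change was 0.52 without YT replicate 3. The TIGAR change in YT cells was -0.31 without YT replicate 4, and its call in cGAS_YT cells was lost without cGAS replicate 7 (0.34), cGAS_YT replicate 9 (0.37) or cGAS_YT replicate 10 (0.45). FDXR in STING_YT cells was lost without STING replicate 14 (0.31). In YT cells calls were gained for SESN1 without YT replicate 4 (0.44), SESN2 without YT replicate 4 (-0.21) and FDXR without YT replicate 4 (-0.28), and SESN2 was called higher in cGAS_YT cells without YT replicate 3 (0.19) or YT replicate 4 (0.19).

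ZMAT3, a zinc finger protein that binds RNA and is a well-known p53 target in growth suppression, had the strongest fall of the 34 genes in each of these 3 comparisons; the gene lies at chr3:179017223-179072279 (GRCh38). It stood at 178 and 196 CPM in YT libraries, against 439.9 and 414 CPM in control libraries (-1.19 ± 0.08, limma adjusted p = 1.09e-08). It stood at 130.2 and 143 CPM in cGAS_YT libraries, against 268 and 277 CPM in cGAS libraries (-0.99 ± 0.08), and at 135 and 142 CPM in STING_YT libraries, against 399 and 371 CPM in STING libraries (-1.47 ± 0.08). All 6 depleted libraries lay between 130.2 and 196 CPM, below all 6 libraries without YAP and TAZ siRNAs. These calls were kept with any of the 12 libraries left out. RPS27L, a ribosomal protein paralog whose reads may be shared with RPS27, was not called (between -0.18 and 0.23), and was called higher in cGAS_YT cells without YT replicate 3 (0.23) or YT replicate 4 (0.23), outside that comparison.

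Of the 2 secreted factors, GDF15, a stress cytokine of the TGF-beta superfamily, had the largest rise of all 34 genes in YT cells; the gene lies at chr19:18374731-18389176 (GRCh38). GDF15 stood at 1125 and 1272 CPM in YT libraries, against 190.0 and 179 CPM in control libraries (2.69 ± 0.10, limma adjusted p = 9.13e-12). Its level was 422 and 479 CPM in STING_YT libraries, against 186 and 178 CPM in STING libraries (1.30 ± 0.10), and 352 and 295 CPM in cGAS_YT libraries, against 272 and 260.3 CPM in cGAS libraries (0.28 ± 0.10, limma adjusted p = 0.0423). The last of these calls was lost without any one of 7 libraries (0.15 to 0.31), among them cGAS_YT replicate 9, whose omission gave the lowest value. It was also lost with median-of-ratios scaling (limma adjusted p = 0.061), with a constant prior (limma adjusted p = 0.128) and with DESeq2 (adjusted p = 0.0503). KITLG, the ligand of the receptor KIT, had the lowest mean CPM of the 34 genes in these 3' end counts, at 1.66 to 7.04 CPM over the 12 libraries, and was not called, though it was higher in cGAS_YT cells without cGAS_YT replicate 10 (0.79).

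The remaining genes were SUSD6, a membrane protein that promotes ubiquitination, CMBL, a hydrolase, and CYFIP2, a subunit of the actin-regulating WAVE complex. SUSD6 stood at 139 and 94.99 CPM in YT libraries, against 49.04 and 43.5 CPM in control libraries (1.29 ± 0.15). It stood at 96.6 and 79.3 CPM in cGAS_YT libraries, against 72.8 and 59.7 CPM in cGAS libraries (0.40 ± 0.15, not called), and at 48.7 and 51.5 CPM in STING_YT libraries, against 39.2 and 36.7 CPM in STING libraries (0.39 ± 0.15, called). The 2 YT libraries differed from each other in SUSD6 while both lay above control. CYFIP2 stood at 52.1 and 53.4 CPM in cGAS_YT libraries, against 25.7 and 21.9 CPM in cGAS libraries, and rose (1.12 ± 0.12); it also rose in STING_YT libraries, at 28.04 and 33.4 CPM, against 23.2 and 22.5 CPM in STING libraries (0.41 ± 0.12). In YT libraries it was at 23.03 and 25.01 CPM, against 21.7 and 20.97 CPM in control libraries (0.16 ± 0.12, not called). CMBL rose by 0.56 ± 0.15 in cGAS_YT and 0.48 ± 0.15 in STING_YT cells and had a change of -0.23 ± 0.15 in YT cells. In STING_YT cells the calls of SUSD6 were lost without any one of 8 libraries (0.35 to 0.44), those of CMBL without STING replicate 14 (0.40), STING_YT replicate 15 (0.52) or STING_YT replicate 16 (0.44) and those of CYFIP2 without STING replicate 13 (0.43), STING replicate 14 (0.39) or STING_YT replicate 16 (0.29); CMBL in cGAS_YT cells was lost without cGAS replicate 8 (0.47) or cGAS_YT replicate 10 (0.43), and SUSD6 was gained there without YT replicate 3 (0.40) or YT replicate 4 (0.40).

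The YAP/TAZ effect on p53 target genes differed with cGAS status for 14 of the 34 genes, tested as an interaction, that is the change in cGAS_YT against cGAS minus the change in YT against control. It was positive for 11 genes (32.4%, background 7.5%) and negative for 3 (8.82%, background 5.93%), in all 14 (41.2%, background 13.4%), with a median of 0.33 beside 0.02 over all genes. Other sets listed below also had positive cGAS interactions: 12 of 25 proliferation genes (48%), 4 of 10 fibroblast markers (40%) and 11 of 51 further p53 targets (21.6%). Negative ones there numbered 0, 0 and 4 (7.84%). Of 24 genes of p53 and its regulators 1 was positive (4.17%) and 2 were negative (8.33%). A raised positive share was thus not particular to the 34 genes. BTG2 (0.97 ± 0.18), CYFIP2 (0.96 ± 0.17), TIGAR (0.95 ± 0.17), FDXR (0.82 ± 0.13), DRAM1 (0.79 ± 0.14) and ASCC3 (0.67 ± 0.12) had positive interactions that were kept with any of the 12 libraries left out. CCNG1 (0.80), CMBL (0.80), SPATA18 (0.66), FAS (0.66) and XPC (0.49) were positive too. The negative ones were GDF15 (-2.41 ± 0.14, limma adjusted p = 1.12e-08), PLK2 (-1.54 ± 0.12) and SUSD6 (-0.89 ± 0.21). GDF15 stood at 352 and 295 CPM in cGAS_YT libraries, against 272 and 260.3 CPM in cGAS libraries, beside 1125 and 1272 CPM in YT libraries, against 190.0 and 179 CPM in control libraries. Without YT replicate 4 positive interactions numbered 16, and without cGAS replicate 8 they numbered 7. The calls of FAS and XPC were lost without cGAS replicate 8 (0.59 and 0.46), that of SPATA18 without any one of 6 libraries (0.52 to 0.67), CCNG1 without control replicate 2 (0.72), cGAS replicate 7 (0.65) or cGAS_YT replicate 10 (0.67), CMBL without control replicate 2 (0.61), cGAS replicate 8 (0.71) or cGAS_YT replicate 10 (0.67) and SUSD6 without control replicate 2 (-0.81), cGAS replicate 7 (-0.75) or cGAS_YT replicate 10 (-0.75).

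With STING, the same test was positive for 6 genes (17.6%, background 3.35%) and negative for 3 (8.82%, background 4.53%), in all 9 (26.5%, background 7.88%), with a median of 0.24 beside 0.00 over all genes. DRAM1 (0.82 ± 0.14), BTG2 (0.77 ± 0.18), SESN2 (0.75 ± 0.12), DDB2 (0.59), FDXR (0.57) and BBC3 (0.52) were positive. GDF15 (-1.39 ± 0.14, limma adjusted p = 9.36e-06), SUSD6 (-0.90 ± 0.21) and PLK2 (-0.83 ± 0.12) were negative. At least 1 of the 2 interactions was called for 17 of the 34 genes (50%, background 16.4%). In other listed sets STING interactions were positive for 6 of 51 further p53 targets (11.8%), 1 of 10 fibroblast markers (10%) and 1 of 25 proliferation genes (4%). Negative ones there numbered 3 (5.88%), 0 and 0. Both interactions use the YT and control libraries, so their values are given side by side and not compared. GDF15, SESN2, PLK2 and DRAM1 kept their calls with any library left out. BTG2 was lost without control replicate 2 (0.64), STING replicate 13 (0.73) or STING_YT replicate 15 (0.74), FDXR without STING replicate 14 (0.53) or STING_YT replicate 15 (0.57), DDB2 without control replicate 1 (0.57), STING replicate 13 (0.60), STING replicate 14 (0.59) or STING_YT replicate 15 (0.54), SUSD6 without control replicate 2 (-0.82), STING replicate 13 (-0.86) or STING_YT replicate 15 (-0.86) and BBC3 without any one of 8 libraries (0.51 to 0.53). The counts moved most without YT replicate 3, to 12 positive and 7 negative genes, and without STING_YT replicate 15, to 2 positive genes.

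**Figure D4:**
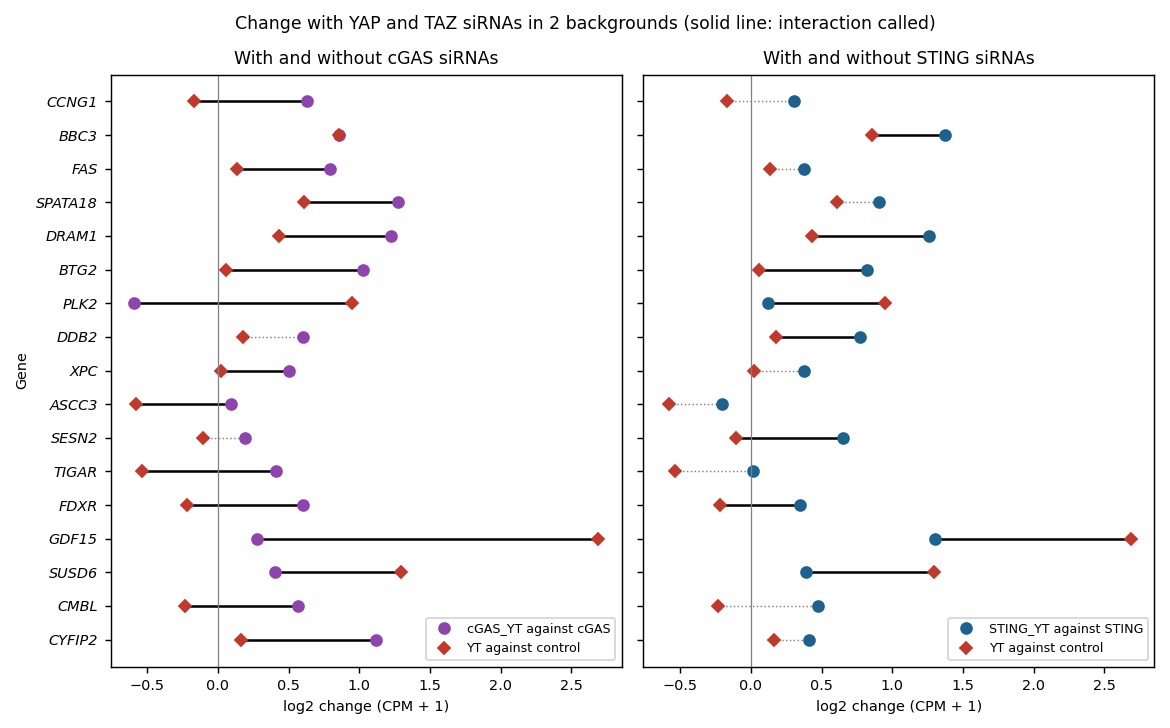
Change in log2(CPM + 1) with YAP and TAZ siRNAs for 17 genes with at least one called interaction, with cGAS (left) or STING siRNAs (right) as circles and without them as diamonds. Solid lines mark called interactions; the longest solid line is GDF15, at 0.28 in cGAS_YT against cGAS and 2.69 in YT against control.

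The cGAS siRNAs alone, compared with control, gave no common direction among the 34 genes. Of these, 5 rose (14.7%, background 11.1%) and 7 fell (20.6%, background 14.3%), in all 12 (35.3%, background 25.4%), with a median of 0.13 beside -0.02 over all genes. PHLDA3 fell most, at 23.5 and 24.7 CPM in cGAS libraries, against 71.8 and 79.2 CPM in control libraries (-1.61 ± 0.12, limma adjusted p = 8.55e-08). CCNG1 fell to 51.5 and 63.4 CPM, against 128 and 143 CPM in control libraries (-1.23 ± 0.14), and TP53INP1 to 34.7 and 35.5 CPM, against 62.2 and 63.4 CPM (-0.82 ± 0.09). ZMAT3 (-0.65 ± 0.08), BBC3 (-0.54 ± 0.11), SPATA18 (-0.47 ± 0.13) and SESN2 (-0.29 ± 0.09) fell as well. RRM2B rose to 102 and 101 CPM in cGAS libraries, against 61.8 and 53.7 CPM in control libraries (0.80 ± 0.10), with TP53I3 (0.55 ± 0.11), GDF15 (0.53 ± 0.10), SUSD6 (0.50 ± 0.15) and XPC (0.29 ± 0.08). The groups did not overlap for 27 of the 34 genes (background 64.1%). MDM2, at 147 and 156 CPM in cGAS libraries, overlapped control (0.05 ± 0.08, not called). Calls were lost for SESN2 without control replicate 1 (-0.29), control replicate 2 (-0.29), cGAS replicate 7 (-0.26) or cGAS replicate 8 (-0.32), for XPC without control replicate 1 (0.29), control replicate 2 (0.30), cGAS replicate 7 (0.27) or cGAS replicate 8 (0.32), for SPATA18 without control replicate 2 (-0.40), cGAS replicate 7 (-0.48) or cGAS replicate 8 (-0.46) and for SUSD6 without control replicate 2 (0.42) or cGAS replicate 7 (0.36). The count of higher genes was 11 in a fit of only the cGAS and control groups, where 2021 of all genes were called higher (1543 with all groups). It also moved without cGAS replicate 7, and without YT replicate 3 or YT replicate 4. The last 2 are libraries outside this comparison that enter the shared estimate of the spread.

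With the STING siRNAs alone, 3 of the 34 genes rose (8.82%, background 6.14%) and 3 fell (8.82%, background 8.86%), with a median of 0.00 beside 0.00, so that the share called, 6 of 34 (17.6%, background 15%), was near that of all genes. The groups did not overlap for 20 of the 34 genes (background 59%). BAX rose to 31.5 and 28.4 CPM in STING libraries, against 20.4 and 18.2 CPM in control libraries (0.61 ± 0.14), and MDM2 to 192 and 198 CPM, against 158 and 136 CPM (0.41 ± 0.08, limma adjusted p = 0.0028). XPC rose by 0.29 ± 0.08. TNFRSF10B fell to 87.7 and 93.6 CPM in STING libraries, against 129 and 138 CPM in control libraries (-0.55 ± 0.09). PLK3 fell to 19.5 and 19.7 CPM, against 27.9 and 30.00 CPM (-0.54 ± 0.14), and DDB2 to 26.5 and 26.3 CPM, against 35.1 and 33.98 CPM (-0.37 ± 0.10). MDM2 and TNFRSF10B kept their calls with any library left out, while BAX was lost without control replicate 2 (0.53) or STING replicate 13 (0.54), XPC without control replicate 1 (0.29), control replicate 2 (0.30), STING replicate 13 (0.23) or STING replicate 14 (0.35), PLK3 without control replicate 2 (-0.49), STING replicate 13 (-0.53) or STING replicate 14 (-0.55) and DDB2 without control replicate 1 (-0.35), control replicate 2 (-0.40), STING replicate 13 (-0.38) or STING replicate 14 (-0.37). Higher calls numbered 1 without control replicate 2 or STING replicate 13 and 5 without YT replicate 3 or 4, and lower calls 1 without control replicate 2 or either STING replicate and 6 without YT replicate 3 or 4.

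**Figure D5:**
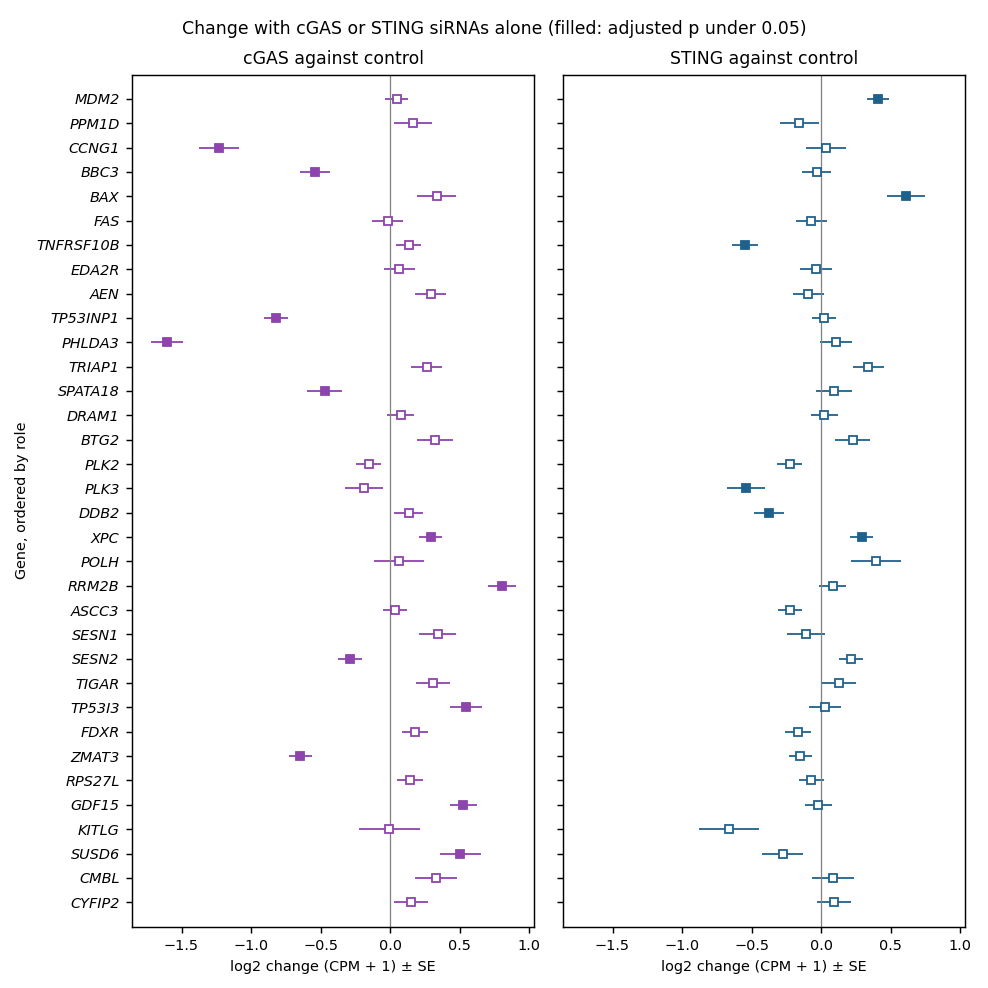
Change in log2(CPM + 1) ± SE for the 34 genes with cGAS siRNAs (left) or STING siRNAs (right) alone against control, from 2 libraries per group; filled squares passed adjusted p under 0.05. PHLDA3, CCNG1 and TP53INP1 lie furthest left in the cGAS panel, at -1.61, -1.23 and -0.82.

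Outside the 34 genes, MDM4, an inhibitor of p53 related to MDM2, rose in YT (0.30 ± 0.11) and STING_YT cells (0.37 ± 0.11) and fell in cGAS_YT cells (-0.36 ± 0.11). CDKN1A, the p53 target that encodes the cell cycle inhibitor p21, stood at 1344 and 1686 CPM in YT libraries, against 1053 and 1199.7 CPM in control libraries (0.42 ± 0.10). It also rose in cGAS_YT (0.35 ± 0.10) and STING_YT cells (0.38 ± 0.10).

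DAXX, a chaperone that binds MDM2, rose in YT cells (0.999 ± 0.09), with changes of -0.00 ± 0.09 in cGAS_YT and -0.13 ± 0.09 in STING_YT cells and interactions of -1.001 ± 0.12 and -1.13 ± 0.12. HIPK2, a kinase of p53, rose in YT cells (0.67 ± 0.12) and fell with cGAS (-1.11 ± 0.12) or STING siRNAs alone (-0.57 ± 0.12). Of 24 listed genes of p53 and its regulators, DAXX and HIPK2 among them, 9 rose (37.5%, background 20.6%) and 6 fell (25%, background 20.9%) in YT cells. In cGAS_YT cells 2 rose (8.33%, background 15%) and 3 fell (12.5%, background 12.7%). In STING_YT cells 6 rose (25%, background 19.1%) and 2 fell (8.33%, background 19.8%). Among 51 further p53 targets outside the 34, 10 rose (19.6%, background 20.6%) and 11 fell (21.6%, background 20.9%) in YT cells, so that the shares called there were near those of all genes (median 0.05). In cGAS_YT cells 20 rose (39.2%, background 15%) and 6 fell (11.8%, background 12.7%; median 0.23), and in STING_YT cells 16 rose (31.4%, background 19.1%) and 9 fell (17.6%, background 19.8%; median 0.23). ORAI3, a calcium channel subunit, rose in all 3 (0.89, 0.97 and 1.10). GADD45B, a stress sensor, fell in all 3 (-2.50, -0.87 and -1.54). With cGAS siRNAs alone 16 of the 51 further targets rose (31.4%, background 11.1%) and 8 fell (15.7%, background 14.3%), with a median of 0.11. With STING siRNAs alone 6 rose (11.8%, background 6.14%) and 7 fell (13.7%, background 8.86%), with a median of -0.08.

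Other gene sets moved in the same libraries. All 25 proliferation genes fell in YT cells (background 20.9%, median -2.22) and in STING_YT cells (background 19.8%, median -2.36). In cGAS_YT cells 19 fell (76%, background 12.7%) and 1, PCNA, rose (4%, background 15%), with a median of -1.31. PCNA, the sliding clamp of DNA replication and itself a known p53 target, had changes of -1.08 ± 0.13 in YT, 0.48 ± 0.13 in cGAS_YT and -0.37 ± 0.13 in STING_YT cells. With cGAS siRNAs alone 21 of the proliferation genes fell (84%, background 14.3%, median -0.95), and with STING siRNAs alone their changes lay between -0.21 and 0.52 (median 0.14). GDF15, SESN2, BBC3 and TNFRSF10B are also known to respond to the integrated stress response, through ATF4 and CHOP. Of 18 genes of that response 5 rose (27.8%, background 20.6%) and 6 fell (33.3%, background 20.9%) in YT cells. In cGAS_YT cells 4 rose (22.2%, background 15%) and 6 fell (33.3%, background 12.7%), and in STING_YT cells 10 rose (55.6%, background 19.1%) and 2 fell (11.1%, background 19.8%). With cGAS siRNAs alone 1 rose (5.56%, background 11.1%) and 11 fell (61.1%, background 14.3%). With STING siRNAs alone 0 rose (background 6.14%) and 3 fell (16.7%, background 8.86%). STING interactions were positive for 7 of the 18 (38.9%, background 3.35%) and negative for 2 (11.1%, background 4.53%). cGAS interactions were positive for 0 (background 7.5%) and negative for 2 (11.1%, background 5.93%). TRIB3 rose in STING_YT cells (1.42 ± 0.10), and CHAC1 fell there (-0.48 ± 0.11). DDIT3, which encodes CHOP, rose by 0.42 in YT, 0.64 in cGAS_YT and 1.26 in STING_YT cells. The STING interactions of the named targets were 0.75 for SESN2, 0.52 for BBC3, -1.39 for GDF15 and 0.39 for TNFRSF10B, the last not called. The part of proliferation or of this stress response in the changes of the 34 genes was not tested.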

How the data were processed

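Libraries were made from messenger RNA 3' ends with the QuantSeq kit, per the labels' protocols. STAR 2.5.3a, featureCounts, edgeR and hg38 appear in the submitters' processing notes (strand setting, annotation and parameters: not given in the sources used). The deposited signal values are read counts per library size (CPM) that the authors scaled between libraries; 100% were whole multiples of 1 read within 0.01 reads, and each of the 13937 genes exceeded a plain CPM of 1 in 2 or more libraries. Reads of overlapping, antisense or near-identical genes cannot be told apart.

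Groups came from the titles (6 groups of 2). limma 3.58.1 (R 4.3.3, intensity-dependent prior) was run on log2(CPM + 1), which understates changes of low genes, for 13894 genes reaching 1 CPM in 2 libraries. All 12 libraries shared a fit with 6 residual degrees of freedom, and p-values were adjusted (Benjamini-Hochberg) within each of 7 contrasts. The pipeline was tested on simulated counts with genes changed in the YT group only. Far fewer genes were changed than the 5773 called here in YT against control, and all groups were given the same spread. The real YT replicates lay further apart than those of other groups (median log2 gap 0.23 over the 34 genes). Recovery in these data may therefore differ. Of 67 genes changed 1.5-fold, 62.7% were called in YT against control, 23.9% as cGAS interactions and 17.9% as STING interactions. For 2-fold changes these shares were 91%, 70.1% and 62.7%. An interaction that was not called therefore does not show an equal effect. Alternatives changed the pseudocount, filter, scaling, prior or groups fitted, left out single libraries, or used edgeR 4.0.16 and DESeq2 1.42.0 on the recovered counts. Values in each library are given for the 5 called genes with the largest change per contrast and a mean of at least 5 CPM; further members' values were added after they were seen. The members and lists were chosen with earlier results of these data known. One gene outside the 34 is not reported here.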

Additional observations from a re-analysis of the deposited data

Results flagged for a closer look

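The YAP/TAZ effect differed with background for 17 of the 34 genes by the interaction test (limma adjusted p under 0.05), as a difference of log2 changes, the doubly treated pair minus YT against control. That is 50%, where 16.4% of all genes had at least 1 of the 2 interactions called, and 11 of the 23 calls were lost when some single library was left out. With cGAS siRNAs the negative ones were -2.41 for GDF15, -1.54 for PLK2 and -0.89 for SUSD6. The positive ones there were 0.97 for BTG2, 0.96 for CYFIP2, 0.95 for TIGAR, 0.82 for FDXR, 0.80 for CCNG1, 0.80 for CMBL, 0.79 for DRAM1, 0.67 for ASCC3, 0.66 for SPATA18, 0.66 for FAS and 0.49 for XPC. With STING siRNAs the negative ones were -1.39 for GDF15, -0.90 for SUSD6 and -0.83 for PLK2. The positive ones were 0.82 for DRAM1, 0.77 for BTG2, 0.75 for SESN2, 0.59 for DDB2, 0.57 for FDXR and 0.52 for BBC3. With 2 libraries per group, no library could be examined as an outlier within its group.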

How the results depend on the processing

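No called or newly called change of a named gene turned direction under any alternative tried. Of 2940 alternative values of 20 named genes, 107 lost and 41 gained a call. Fitting only the groups compared gave 8 higher and 4 lower genes in YT against control (12 and 5 with all groups). Over all genes 1941 were higher and 1903 lower there, against 2865 and 2908 with all groups. Higher genes in cGAS against control numbered 11 (5 with all groups), and 2021 over all genes (1543 with all groups). Those in STING against control numbered 5 (3 with all groups), and 1302 over all genes (853 with all groups). In these fits the interactions of SPATA18 (cGAS) and DDB2 (STING) were lost. A constant prior gave 3 positive STING interactions instead of 6. It lost TP53I3 and PHLDA3 in YT cells, GDF15, RRM2B and TIGAR in cGAS_YT cells, PLK3, AEN and SUSD6 in STING_YT cells, SESN2 and SUSD6 in cGAS cells, XPC in STING cells, the cGAS interactions of CCNG1 and SUSD6 and the STING interactions of BBC3, DDB2, BTG2 and SUSD6. SUSD6 in STING_YT cells was also lost with a pseudocount of 4 CPM and with edgeR, and the STING interaction of BBC3 with edgeR. Calls were gained as well. In STING against control TRIAP1 (0.34 in the main fit) was called higher under several alternatives, DESeq2 among them. KITLG there (-0.66 in the main fit) was called lower under some, a constant prior among them. With only the groups compared fitted, RPS27L was called higher in cGAS_YT (0.23) and lower in STING_YT cells (-0.18). Leaving out each library in turn, higher and lower counts ranged from 9 to 13 and 5 to 7 in YT against control, 16 to 25 and 3 to 3 in cGAS_YT against cGAS, 15 to 22 and 2 to 5 in STING_YT against STING, 3 to 11 and 5 to 7 in cGAS against control, and 1 to 5 and 1 to 6 in STING against control. Positive and negative interactions ranged from 7 to 16 and 2 to 3 with cGAS, and 2 to 12 and 2 to 7 with STING. Over all genes, 209 to 1329 positive and 341 to 1210 negative STING interactions were called in these fits, against 465 and 630 with all libraries; 636 to 1914 positive and 470 to 1334 negative cGAS interactions were called, against 1042 and 824. Higher genes in STING against control numbered 277 to 1392, and 1302 with only those groups fitted, against 853. With edgeR on the recovered whole reads, higher and lower calls over all genes numbered 2817 and 2843 for YT against control, 2016 and 1721 in cGAS_YT against cGAS, and 2600 and 2721 in STING_YT against STING. edgeR and DESeq2 changed the counts of p53 target genes by less than 1.5 times in each comparison. A group left with a lone library is assumed to vary like the others. No paired analysis was possible because the replicate numbers in the titles are all different.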
